A study of Mus musculus with 12 samples.

Results

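The 9 genes described here encode secreted or intracellular proteins of the acute phase response: Lcn2, Orm1, Orm2, Hp, Cp, Lrg1, Itih4, Serpina3n and Serpina3g. They were taken by symbol from the count tables, in which 33924 genes are listed in one set of libraries and 22609 in the other. All 9 were listed in both and all 9 passed the filter on low counts, among 17165 and 15294 genes tested. RNA was sequenced from whole lung of mice of the B6 background, 6 to 8 weeks old, 14 to 16 h after dosing with house dust mite (Dermatophagoides farinae, D.f.) extract or phosphate-buffered saline (PBS). In the RNase III set, the wild-type groups are PBS, D.f. extract, and D.f. extract treated with RNase III (n = 2 in each). RNase III cuts double-stranded RNA. There is no group with PBS and RNase III, so an effect of the enzyme itself and an effect of cutting double-stranded RNA cannot be told apart. In the knockout set, wild-type mice received PBS (n = 1) or D.f. extract (n = 2), and Tlr3 Mavs double knockout mice received PBS (n = 1) or D.f. extract (n = 2). Tlr3 senses double-stranded RNA in endosomes, while cytosolic RNA sensors signal through Mavs. Beyond the double knockout, the labels name no allele, promoter or clone, nor whether replicates are separate animals, so p-values reflect library-to-library spread that may be technical.

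The acute phase response is the change in the proteins of blood plasma that follows infection or injury. The liver makes most of them, under interleukin-6 and interleukin-1 acting through Stat3, C/EBP factors and NF-kappa B, and several are also made in lung epithelium and in myeloid cells. Lcn2 (lipocalin 2) withholds iron from bacteria by binding their siderophores, Orm1 and Orm2 are the alpha-1-acid glycoproteins, which carry small lipophilic molecules, Hp (haptoglobin) binds free haemoglobin, and Cp (ceruloplasmin) is a copper-containing ferroxidase. Lrg1 (leucine-rich alpha-2-glycoprotein) modifies TGF-beta signalling in endothelium, and Itih4 is a heavy chain of the inter-alpha-trypsin inhibitor family. Serpina3n is a secreted inhibitor of serine proteases, granzyme B among them in mice, and Serpina3g is an intracellular serpin that inhibits cysteine cathepsins.

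Positions are those of GENCODE release M1 of NCBIM37 (mm9), the build to which the reads were mapped. Lcn2 is at chr2:32240153-32243317 (minus strand), Cp at chr3:19857054-19909145 (plus), Hp at chr8:112099030-112103072 (minus), Itih4 at chr14:31699662-31715167 (plus) and Lrg1 at chr17:56259103-56261369 (minus). Orm1 (chr4:63005594-63009197, plus) and Orm2 (chr4:63023483-63026912, plus) are neighbours 14.3 kb apart. Serpina3g (chr12:105474455-105480149, plus) and Serpina3n (chr12:105644939-105652539, plus) lie 165 kb apart in the Serpina3 cluster. Cp overlaps Hps3 on the other strand over 2083 exonic bases, and since the strand setting of the counting is not given in the sources used here, those reads cannot be told apart. Of the 100-base windows of the Orm1 transcript, 6.95% occur unchanged in Orm2 and 19.7% do so within 2 mismatches. For Serpina3g the shares against other Serpina3 genes were 2.17% and 13.1%, and for Serpina3n 0.0509% and 2.70%, so part of the reads of these genes could be set aside or assigned to the copy. The other 5 genes shared no unchanged window with another gene. Lcn2 lies on the same chromosome as Mavs, 98.8 Mb away, and Hp on that of Tlr3, 65.6 Mb away.

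Promoter sequences came from RefSeq (GRCm38.p6), which matched 7 of the 9 genes (8 windows, 2 of them for Cp). Orm1 and Hp had no entry. The 250 bases before the start of 4 genes are printed, a selection made after the values were seen. Lcn2 and Orm2 were not called lower with RNase III, while Serpina3n and Serpina3g were. This split is by call and not by size. The log2 differences from D.f. alone were -0.61 for Lcn2, -0.96 for Orm2, -0.77 for Serpina3n and -2.53 for Serpina3g. Capitals mark matches to 4 motifs searched on both strands, GGGANNTTC for NF-kappa B, GAAANNGAA for interferon-stimulated response elements, TTCNNNGAA for Stat sites (GAS) and TTGCNNAA for C/EBP, where N is any base. The regions are chr2:32387740-32387989 (minus strand), chr4:63362199-63362448 (plus), chr12:104406458-104406707 (plus) and chr12:104235897-104236146 (plus).
Lcn2: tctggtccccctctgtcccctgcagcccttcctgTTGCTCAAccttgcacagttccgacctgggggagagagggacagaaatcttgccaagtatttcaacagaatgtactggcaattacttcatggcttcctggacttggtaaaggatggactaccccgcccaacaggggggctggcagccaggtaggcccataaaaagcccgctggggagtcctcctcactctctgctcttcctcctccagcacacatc
Orm2: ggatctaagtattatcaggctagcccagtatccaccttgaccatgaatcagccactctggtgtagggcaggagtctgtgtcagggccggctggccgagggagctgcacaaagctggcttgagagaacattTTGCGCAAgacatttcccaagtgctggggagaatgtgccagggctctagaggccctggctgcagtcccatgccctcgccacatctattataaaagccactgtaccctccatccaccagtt
Serpina3n: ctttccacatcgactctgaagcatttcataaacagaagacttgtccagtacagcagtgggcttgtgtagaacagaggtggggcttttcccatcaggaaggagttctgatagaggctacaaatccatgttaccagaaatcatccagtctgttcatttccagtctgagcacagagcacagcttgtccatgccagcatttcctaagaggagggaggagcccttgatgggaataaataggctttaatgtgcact
Serpina3g: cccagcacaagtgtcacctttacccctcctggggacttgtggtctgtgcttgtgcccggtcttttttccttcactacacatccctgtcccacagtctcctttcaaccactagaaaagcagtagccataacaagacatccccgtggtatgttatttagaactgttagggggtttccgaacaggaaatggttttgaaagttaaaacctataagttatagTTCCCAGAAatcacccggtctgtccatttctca
Lcn2 held a C/EBP match, TTGCTCAA, whose first base is at -216 from the start, and Orm2 held one, TTGCGCAA, at -120. Serpina3g held a GAS match, TTCCCAGAA, at -33, and Serpina3n held no match. Of the windows not printed, the second Cp window had a C/EBP match (TTTTGCAA at -70), Itih4 had a GAS match (TTCCGAGAA at -51), and Lrg1 and the first Cp window had none. No match to GGGANNTTC or GAAANNGAA was present in the 8 windows, each of which also includes 50 bases after the start. Other forms of NF-kappa B sites and interferon-stimulated response elements were not searched, so their absence is not shown. Over all 32851 windows of the table, 10.8% held a C/EBP match, 8.30% a GAS match, 8.56% an interferon-stimulated response element match and 3.94% an NF-kappa B match. A match is a description of letters and does not show binding.

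Depth and tissue content bear on every value. Each library of the RNase III set held 17754518 to 25714074 assigned reads, each of the knockout set 15687699 to 20945618, and the limit a count of 0 allows (3 reads) was 0.117 to 0.191 CPM, the count scaled to library size. These limits, and the intervals of the Orm2 ratio and share, cover counting error only. Intervals of log2 values were derived from the edgeR test and include the spread between libraries. No replicate pair was a duplicate. As a check of the labels, Mavs and Tlr3 were lower in knockout than in wild-type D.f. libraries (log2 -3.73 ± 0.14 and -3.44 ± 0.25, adjusted p of 0.0041 and 0.0099 by edgeR), with Mavs at 2.35 and 2.66 CPM against 34.3 and 32.2 CPM. Lung epithelium markers, the defining genes of the tissue, were all detected, with a summed level of 20493 to 42472 CPM in the RNase III set and 11289.8 to 15615 CPM in the knockout set. The 12 hepatocyte markers summed to 7.20 to 33.0 CPM, with 3 to 7 of them at 0 in 11 libraries and none at 0 in knockout D.f. replicate 5. The albumin gene Alb had 2 to 19 reads in 11 libraries and 208 in that library, which also has the 33.0 CPM. In whole lung, fewer cells of a type and less RNA per cell cannot be told apart.

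Per kilobase of the longest coding transcript, the PBS lungs of the RNase III set were led by Hp, at 536 ± 89 CPM per kb (mean ± SD, n = 2), and Lcn2, at 149 ± 36. Cp (69.0 ± 3.8), Serpina3n (52.7 ± 9.2), Lrg1 (46.5 ± 24.0) and Itih4 (37.4 ± 20.2) followed, in CPM per kb. Within that run, the libraries of Serpina3n, Lrg1 and Itih4 overlapped, so their order does not exceed the spread. Serpina3g (4.41 ± 1.64 CPM per kb), Orm1 (0.66 ± 0.13) and Orm2 (0.04 ± 0.05) were lowest. With D.f. the order of levels per kb became Lcn2 (1299.9 ± 548), Hp (750.3 ± 72.6), Serpina3n (198 ± 9), Cp (158 ± 0.10), Lrg1 (127 ± 36), Itih4 (55.3 ± 4.5), Serpina3g (21.2 ± 6.2), Orm1 (10.9 ± 3.0) and Orm2 (3.82 ± 1.03). In this set the place of Lcn2 above Hp depended on the length used. With no length the mean D.f. levels were 1189 CPM for Lcn2 and 1008 CPM for Hp, and their libraries overlapped. With all exons merged, 2302 bases in place of 915, the D.f. level of Lcn2 was 517 CPM per kb against 750.3 for Hp, whose length does not change. The place of Cp rests on the same choice. With its exons merged, 9566 bases in place of 4564, Cp was at 32.9 CPM per kb with PBS, below Itih4 (35.7), and at 75.4 with D.f., below Lrg1 (127).

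**Figure D1:**
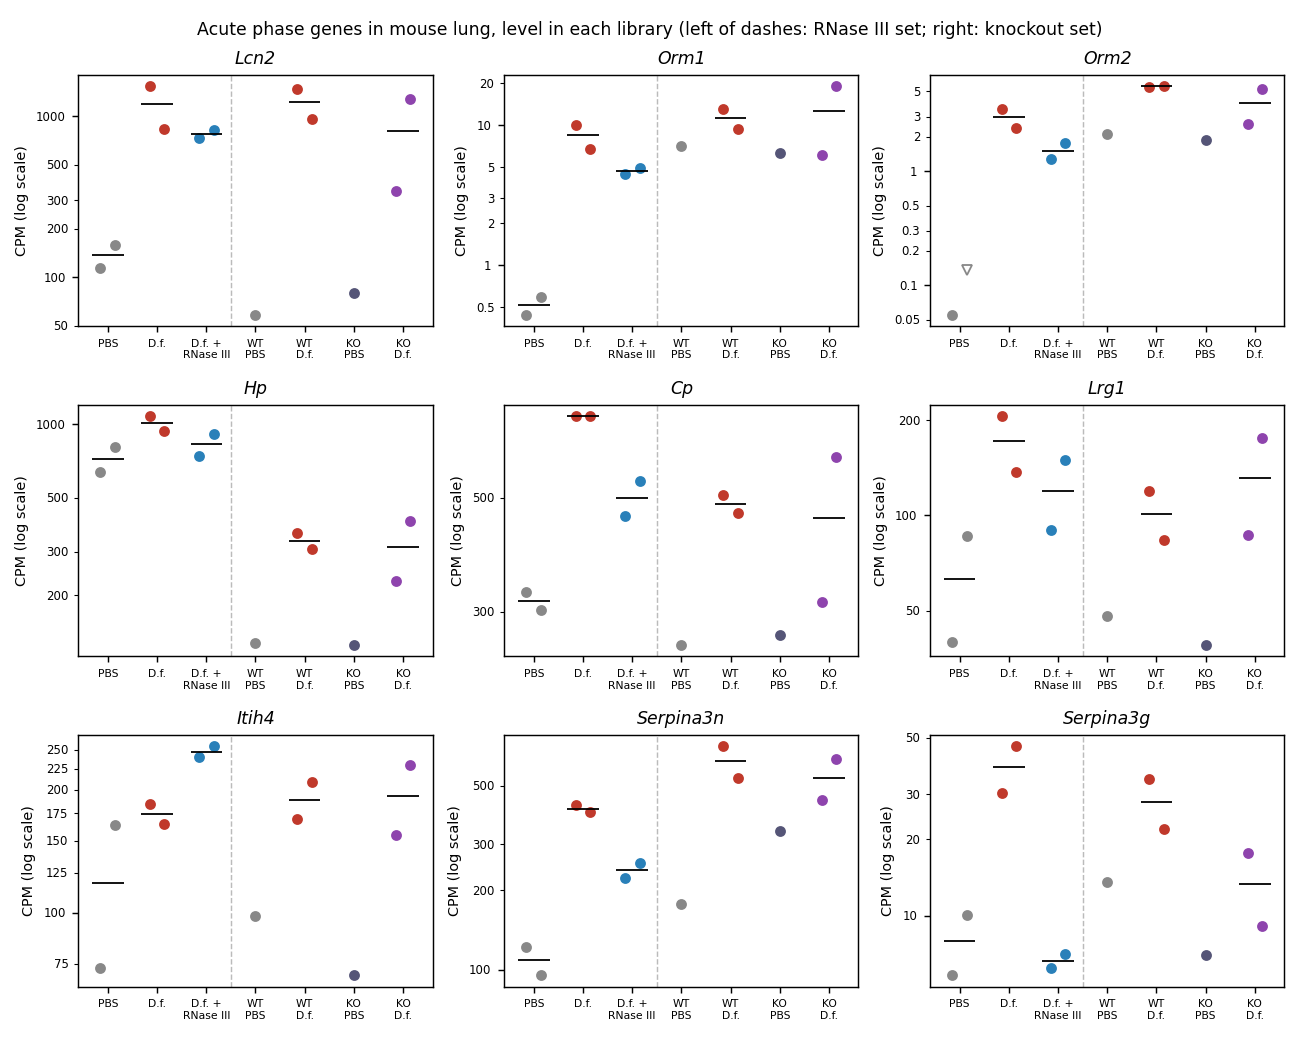
Level of each gene in each library, in CPM on a log axis, with the RNase III set left of the dashed line and the knockout set right of it (WT, wild type; KO, Tlr3 Mavs double knockout). Each point is 1 library and each bar the mean of 2; the open triangle is an Orm2 count of 0, drawn at the level of 3 reads. Serpina3g with RNase III, at 6.23 and 7.06 CPM, lies among the PBS libraries, while Lcn2, at 737 and 817 CPM, lies above its PBS libraries and below the D.f. libraries at 1544 and 835 CPM.

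The first question is how wild-type lung responded to the extract. In the RNase III set 6 of the 9 genes rose: both orosomucoid genes, Lcn2, Serpina3n, Serpina3g and Cp. Of all 17165 genes tested, 6.51% were called higher. The test was the quasi-likelihood test of edgeR, adjusted by Benjamini-Hochberg over all genes tested, and a call is an adjusted p under 0.05. The 9 log2 fold changes were all positive with a median of 1.91, against -0.01 over all genes. In all 9 genes both D.f. libraries lay above both PBS libraries, as they did in 25.6% of all genes.

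Among the iron-withholding and carrier proteins, Lcn2 measured 114 and 159.7 CPM in the PBS libraries and 1544 and 835 CPM in the D.f. libraries. The groups are far apart, and the D.f. libraries differ 1.85-fold from each other. The difference was 8.70-fold, a log2 fold change of 3.12 ± 0.32 (SE, adjusted p = 0.0017 by edgeR). Orm1 had 8 and 13 reads with PBS (0.442 and 0.588 CPM) and 255 and 156 with D.f. (10.1 and 6.80 CPM). Both PBS libraries are low and both D.f. libraries high, a 16.1-fold rise (log2 4.01 ± 0.34, adjusted p = 0.00083 by edgeR). Orm2 had 1 and 0 reads with PBS and 89 and 55 with D.f. (3.53 and 2.40 CPM). Its PBS level is at the limit of detection, so that the fold change has little meaning as a number. The ratio of summed reads per depth was 120 with a 95% exact counting interval of 21.2 to 4778. Orm2 was called by edgeR (adjusted p = 0.0021). The log2 value reported with the call, 6.58 ± 0.72, depends on the prior count, and the call itself does not. In the D.f. libraries Orm2 made up 25.9% (21.3 to 30.8%) and 26.1% (20.3 to 32.5%) of the reads of the pair (95% exact binomial interval).

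The serpins and the ferroxidase rose as well. Serpina3n measured 122 and 95.4 CPM with PBS against 422 and 396 CPM with D.f., with no overlap and little spread within either group. It rose 3.76-fold (log2 1.91 ± 0.16, adjusted p = 0.00088 by edgeR). Serpina3g measured 5.86 and 10.05 CPM with PBS against 30.4 and 46.2 CPM with D.f., a 4.79-fold rise (log2 2.26 ± 0.30, adjusted p = 0.0044 by edgeR). Cp measured 327 and 303 CPM with PBS against 721 and 722 CPM with D.f. This was the smallest rise that passed, 2.29-fold (log2 1.20 ± 0.14, adjusted p = 0.0028 by edgeR).

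Hp, Lrg1 and Itih4 did not pass. Hp was already abundant with PBS, at 635 and 805 CPM, against 1077 and 939 CPM with D.f. (log2 0.49 ± 0.18, adjusted p = 0.149 by edgeR). Lrg1 measured 39.9 and 85.9 CPM with PBS against 206 and 137 CPM with D.f. (log2 1.44 ± 0.40, adjusted p = 0.0616). Itih4 measured 73.2 and 163 CPM with PBS against 185 and 165 CPM with D.f. (log2 0.56 ± 0.32, adjusted p = 0.331). In the latter pair PBS replicate 2 is high and lies close to the D.f. libraries. Without PBS replicate 2 all 9 genes were called, while the calls over all genes went from 1890 to 3071. That library also had 1474 CPM of cardiac muscle markers (13 genes) against 190.5 in PBS replicate 1, and 274 CPM of adipose markers (13 genes) against 53.6. D.f. replicates 3 and 4 had 545 and 1116 CPM of the cardiac and 119.8 and 199 CPM of the adipose markers. Their part in these values was not tested.

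Neutrophils store Lcn2 and Lrg1 in their granules. The summed level of 18 neutrophil markers was 52.2 and 186 CPM with PBS against 417 and 269 CPM with D.f. With RNase III it was 105 and 143 CPM, in the range of the PBS libraries. Lcn2 (737 and 817 CPM) and Lrg1 (90.2 and 149 CPM) lay above their PBS libraries there. Of the 12 markers that could be tested, 4 rose with D.f., among them Csf3r and Cxcr2. Stfa3 was at 0 in all 6 libraries and Ly6g in 4 of them. Of 13 monocyte and macrophage markers 6 rose and 1 fell, of 10 lung epithelium markers 2 fell, of 10 fibroblast markers 3 fell, and of 12 cardiac and 12 adipose markers 1 and 0 were called. Among 4 hepatocyte markers tested Hpx, which is also in the list of other acute phase genes, rose, and 3 had a negative log2 value. Of the adipose markers 2 had an unadjusted p under 0.05. Their part in the rise of Lcn2 and in the level of Lrg1 was not tested.

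The RNase III question is whether treating the extract with an enzyme against double-stranded RNA changed the response. Against D.f. alone, 2 of the 9 genes fell, Serpina3g and Serpina3n, where 4.85% of all 17165 genes were called lower. In 7 of the 9 both libraries with RNase III lay below both D.f. libraries, as in 30.7% of all genes, and in 1, Itih4, both lay above, as in 29.9%. Serpina3g measured 30.4 and 46.2 CPM with D.f. and 6.23 and 7.06 CPM with RNase III, in the range of the PBS libraries (5.86 and 10.05 CPM). It was 5.76-fold lower (log2 -2.53 ± 0.31, adjusted p = 0.0041 by edgeR). Without either library with RNase III the same difference missed the threshold, with adjusted p of 0.0701 without replicate 5 and 0.0526 without replicate 6. Serpina3n measured 422 and 396 CPM with D.f. and 223 and 255 CPM with RNase III, between the other groups and overlapping neither. It was 1.71-fold lower (log2 -0.77 ± 0.16, adjusted p = 0.0309 by edgeR), and the call was lost without any one of the 4 libraries compared (adjusted p of 0.145, 0.133, 0.347 and 0.152 without replicates 3, 4, 5 and 6). Tissue markers moved in the same libraries. Of 12 cardiac markers 11 lay lower with RNase III without overlap (summed 253 and 227 CPM against 545 and 1116 CPM) and 1 was called, Myh7, higher. Of 12 adipose markers 10 lay lower without overlap (64.9 and 57.2 CPM against 119.8 and 199 CPM), with none called by edgeR and 4 at an unadjusted p under 0.05. All 10 lung epithelium markers had a positive log2 value, 8 of them without overlap, and of 13 monocyte and macrophage markers 4 fell and 1 rose. Their part in the values of the 9 genes was not tested.

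The carriers and Cp lay lower with RNase III than with D.f. alone but did not pass. Lcn2 measured 737 and 817 CPM against 1544 and 835 CPM, so that D.f. replicate 4 lay close to the libraries with RNase III without overlapping them. Its log2 difference was -0.61 ± 0.30, with a 95% interval of -1.31 to 0.08 (adjusted p = 0.280 by edgeR). Orm1 had 81 and 92 reads (4.46 and 4.92 CPM) and Orm2 had 23 and 33 reads (1.27 and 1.77 CPM), in both genes below the D.f. libraries. Their log2 differences were -0.85 ± 0.27 (adjusted p = 0.118) and -0.96 ± 0.41 (adjusted p = 0.219). Cp measured 460.3 and 539 CPM, between PBS and D.f. and overlapping neither, a log2 difference from D.f. of -0.53 ± 0.14 (adjusted p = 0.0686 by edgeR; 0.00457 by DESeq2). Hp measured 739 and 912 CPM (log2 -0.29 ± 0.18, adjusted p = 0.413) and Lrg1 90.2 and 149 CPM (log2 -0.52 ± 0.39, adjusted p = 0.497). Itih4 was the exception in sign, at 240.0 and 255 CPM against 185 and 165 CPM with D.f. (log2 0.50 ± 0.32, adjusted p = 0.417). Without PBS replicate 1, and likewise without PBS replicate 2, which are not in this comparison but share its estimate of the spread, 5 genes were called: the 2 serpins, Orm1 and Cp lower, and Itih4 higher. Over all genes each of these fits called 2874, against 1246 with all libraries.

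Set against PBS, the extract with RNase III gave no call among the 9 genes by edgeR, with 7 of them at an unadjusted p under 0.05. Of all genes 0.00583% were called, 1 of 17165, and 835 had an unadjusted p under 0.05. In 7 of the 9 both libraries lay above both PBS libraries, as in 16.4% of all genes. This comparison shares its PBS libraries with the first and its RNase III libraries with the second, so the values stand side by side and were not compared as independent. Lcn2 was 5.69-fold above PBS (log2 2.51 ± 0.31, adjusted p = 0.216), Orm1 8.93-fold (log2 3.16 ± 0.34, adjusted p = 0.162) and Serpina3n 2.20-fold (log2 1.14 ± 0.16, adjusted p = 0.287). For Orm2 the ratio of reads was 61.1 (10.5 to 2455). Cp (log2 0.67 ± 0.14), Lrg1 (0.93 ± 0.39) and Itih4 (1.06 ± 0.33) had adjusted p of 0.812, 0.960 and 0.960. Hp was at 0.20 ± 0.18, and Serpina3g at -0.27 ± 0.31 with a 95% interval of -0.99 to 0.45 (adjusted p = 0.961), the single negative value of the 9. DESeq2 called 5 genes higher in this comparison (Lcn2, Orm1, Orm2, Cp and Serpina3n), and edgeR with no filter on low counts called 4 of them, without Cp. Over all genes DESeq2 called 48 and edgeR with no filter 10. Without PBS replicate 1, edgeR called Lcn2, Orm1, Orm2 and Serpina3n, and without PBS replicate 2 it called Lcn2, Orm1 and Itih4. Over all genes these fits called 188 and 62, against 1.

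**Figure D2:**
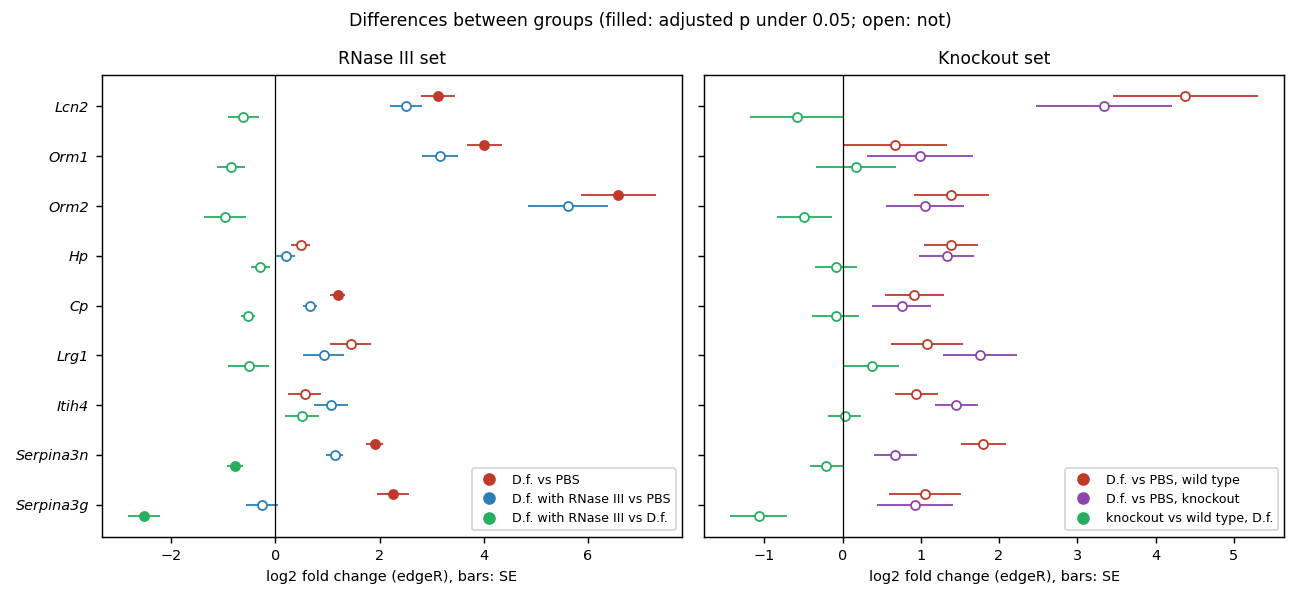
Log2 fold change of each gene with its SE (horizontal bars) in the RNase III set (left) and the knockout set (right), from edgeR; filled points passed an adjusted p under 0.05. In the left panel the blue points of Lcn2, Orm1 and Orm2, D.f. with RNase III against PBS, lie at 2.51, 3.16 and 5.62, while that of Serpina3g is at -0.27.

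Serpina3g sits in a cluster of related genes, and several relatives were measured. Of 16 paralogs of the 9 genes, 10 could be tested in the RNase III set, and 3 rose with D.f., all of them Serpina3 genes. Serpina3f measured 5.69 and 4.30 CPM with PBS, then 36.6 and 41.7 CPM with D.f., and 2.37 and 3.48 CPM with RNase III. The D.f. libraries stand apart from the other 4, and the libraries with RNase III lie below those with PBS. Serpina3f rose with D.f. (log2 2.97 ± 0.23, adjusted p = 0.00057 by edgeR) and fell with RNase III (log2 -3.74 ± 0.24, adjusted p = 0.00057). Serpina3i rose by 1.84 ± 0.30 and fell by 1.29 on the log2 scale (adjusted p of 0.011 and 0.046). Serpina3h rose by 1.46 ± 0.34 (adjusted p = 0.036), with a difference of -1.06 ± 0.33 for RNase III that did not pass (adjusted p = 0.11). Serpina3m was at 1.54 ± 0.52 (adjusted p = 0.11). In the knockout set none of 12 paralogs tested was called with D.f. by edgeR in either genotype, with 1 in each at an unadjusted p under 0.05, and Serpina3f measured 32.3 CPM in knockout D.f. replicate 5 but 5.05 CPM in replicate 6. Since 13.1% of Serpina3g windows lie within 2 mismatches of a relative, most closely Serpina3f, the levels of these genes are uncertain to the extent that reads were shared.

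**Figure D3:**
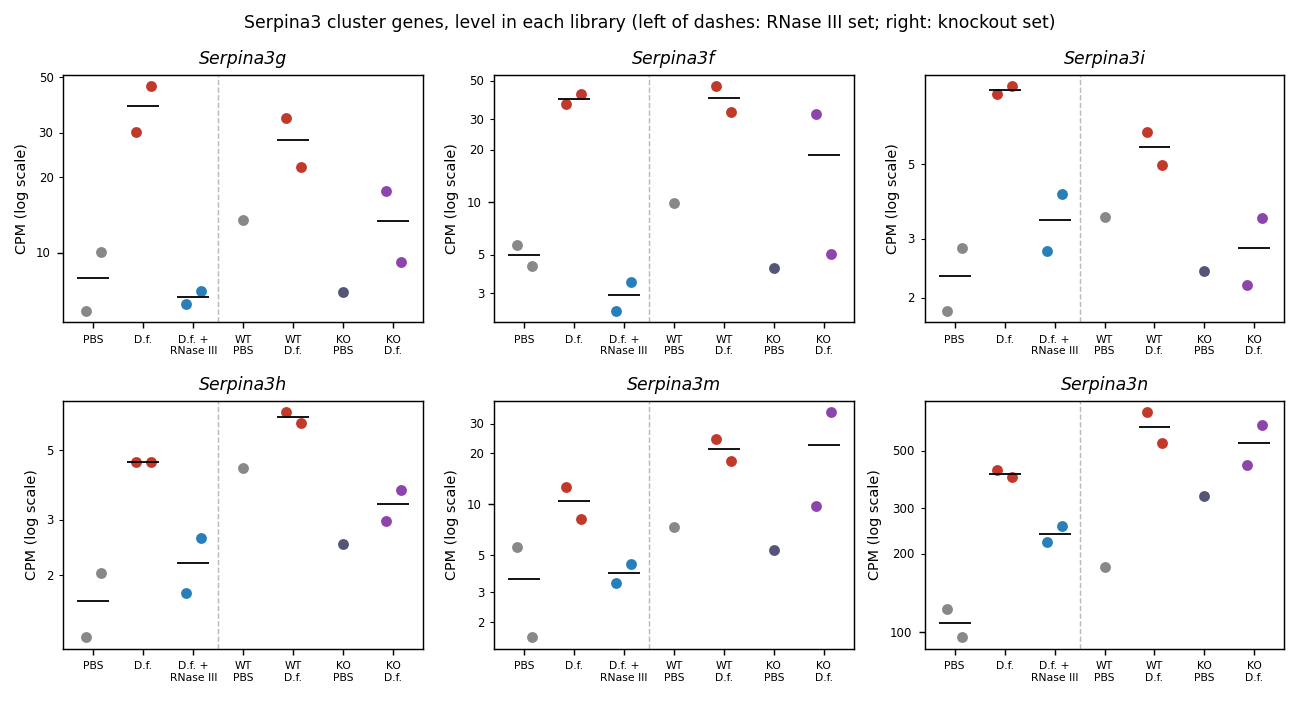
Level of 6 genes of the Serpina3 cluster in each library, in CPM on a log axis; points are libraries and bars the mean of 2, with the RNase III set left of the dashed line. Serpina3f, at 36.6 and 41.7 CPM with D.f. and 2.37 and 3.48 CPM with RNase III, was high in the same libraries as Serpina3g, and Serpina3n, at 223 and 255 CPM with RNase III, remains above PBS.

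In the RNase III set, interferon-stimulated genes and markers of T and NK cells were high in the D.f. libraries, as Serpina3g was. The 20 interferon-stimulated genes summed to 843 and 509 CPM with PBS, then 8386 and 10999 CPM with D.f., and 763 and 699 CPM with RNase III. All 20 rose with D.f. and all 20 fell with RNase III, among them Cxcl10 and Gbp2. The 12 T and NK cell markers summed to 79.6 and 56.9 CPM, 161.6 and 160.6 CPM, and 56.2 and 57.1 CPM in the same order, and 7 rose and 11 fell. In the knockout set 13 of the 20 interferon-stimulated genes rose with D.f. in wild type, and 16 were lower in knockout than in wild-type D.f. lungs. In the knockout, D.f. against PBS gave no edgeR call in either list, nor for Serpina3g (log2 0.93 ± 0.49, adjusted p = 0.819 by edgeR). All 20 interferon-stimulated genes had a positive log2 value, 13 of them higher without overlap, as were 33.3% of all genes. They summed to 563 CPM with PBS and 1210 and 512 CPM with D.f. All 11 T and NK cell markers tested had a negative log2 value. Their sum was 82.4 CPM with PBS and 53.6 and 35.5 CPM with D.f. In 11 of 11 both D.f. libraries lay below the 1 PBS library, as in 32.3% of all 15294 genes. The part of the interferon-stimulated genes and of these markers in the values of Serpina3g was not tested.

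The knockout set asks the same of mice without Tlr3 and Mavs. In its wild-type lungs no member was called with D.f. against PBS by edgeR, with 5 of 9 at an unadjusted p under 0.05, where 1.38% of 15294 genes were called higher. There is 1 PBS library per genotype, which the fit assumes to vary like the replicated groups. All 9 genes were above the PBS library in both D.f. libraries, as were 42.4% of all genes. Lcn2 measured 58.5 CPM with PBS against 1481 and 957 CPM with D.f., 20.8-fold apart (log2 4.38 ± 0.93, adjusted p = 0.106). Serpina3n measured 178 CPM with PBS against 705 and 535 CPM with D.f. (log2 1.80 ± 0.29, adjusted p = 0.0598). Both values stand well clear of their PBS library. Hp (128 CPM with PBS, then 359 and 309.6 CPM with D.f.), Itih4 (98.1, then 169.6 and 208 CPM) and Cp (259, then 507 and 467 CPM) had log2 values of 1.39 ± 0.35, 0.94 ± 0.27 and 0.91 ± 0.38. Lrg1 (48.0, then 119 and 83.4 CPM) and Serpina3g (13.5, then 34.3 and 21.9 CPM) had 1.08 ± 0.46 and 1.05 ± 0.46. Orm1 had 124 reads with PBS and 264 and 157 with D.f. (7.06, 13.02 and 9.42 CPM), and Orm2 37, 111 and 93 reads (2.11, 5.47 and 5.58 CPM). For Orm1 the log2 value was 0.67 ± 0.67 and for Orm2 1.39 ± 0.48. DESeq2 called Lcn2, Hp, Itih4 and Serpina3n, and it also called more of all genes than edgeR did (counts in the closing section). Without knockout D.f. replicate 5 edgeR called all 9 and without replicate 6 it called 8, each with 1 residual degree of freedom and with 3150.0 and 2977 calls over all genes, against 232.

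In the knockout lungs D.f. against PBS gave no call by edgeR in any of 15294 genes (0%), with 847 genes and 4 of the 9 members at an unadjusted p under 0.05. DESeq2 called 36 genes, among them Hp and Itih4. In 8 of the 9 both D.f. libraries lay above the PBS library, as in 33.3% of all genes. Lcn2 measured 80.2 CPM with PBS against 342 and 1281 CPM with D.f. (log2 3.34 ± 0.87, adjusted p = 0.819 by edgeR). Both D.f. libraries are far above PBS, and they differ 3.74-fold from each other. The log2 value was 4.0 without replicate 5 and 2.09 without replicate 6. Itih4 measured 70.3 CPM with PBS against 155 and 230.3 CPM with D.f. (log2 1.45 ± 0.28), Hp 125, then 228 and 401 CPM (1.33 ± 0.35), and Lrg1 39.0, then 86.7 and 176 CPM (1.75 ± 0.47). Serpina3n measured 336 CPM with PBS, above the 178 CPM of wild type, and 442 and 631 CPM with D.f. (log2 0.67 ± 0.27). Cp measured 271 CPM with PBS against 313 and 601 CPM with D.f. (log2 0.76 ± 0.38). Serpina3g measured 7.0, then 17.6 and 9.15 CPM (log2 0.93 ± 0.49). Orm1 had 101 reads with PBS and 116 and 382 with D.f., and Orm2 had 30, 49 and 105. In Orm1 the PBS library (6.37 CPM) lies above D.f. replicate 5 (6.17 CPM) and below replicate 6 (19.1 CPM). Without knockout D.f. replicate 5 edgeR called 8 of the 9 genes, and without replicate 6 it called 5, with 2092 and 266 calls over all genes, against 0.

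Knockout and wild-type lungs with D.f. were then compared directly, sharing these D.f. libraries. None of the 9 genes was called by edgeR, with 1 at an unadjusted p under 0.05, where 2.53% of 15294 genes were called in either direction. DESeq2 called none of the 9 either. Without extract, Serpina3g was at 7.0 CPM in the knockout and 13.5 CPM in wild type, with 1 PBS library each. With D.f., both its knockout libraries (17.6 and 9.15 CPM) lay below both of wild type (34.3 and 21.9 CPM). Serpina3g had the largest difference of the 9 with D.f., a log2 value of -1.08 ± 0.36 (95% interval -1.98 to -0.18, adjusted p = 0.208 by edgeR). It was called without knockout D.f. replicate 5 (log2 -1.62) and without replicate 6 (log2 -0.68). Orm2 also did not overlap (5.47 and 5.58 CPM in wild type, 2.61 and 5.25 CPM in the knockout), with a log2 value of -0.49 ± 0.35. In 25.6% of all genes the knockout libraries were the lower and did not overlap. Of 11 cardiac markers 10 were lower in the knockout without overlap and 3 were called (summed 133 and 197 CPM against 475 and 709 CPM). Of 11 T and NK cell markers 9 were lower without overlap and 2 were called (53.6 and 35.5 CPM against 86.3 and 87.3 CPM). Their part in the values of the 9 genes was not tested. Lcn2 overlapped, with a log2 value of -0.59 ± 0.59 (95% interval -2.07 to 0.90), and the value was 0.071 without knockout D.f. replicate 5 and -1.83 without replicate 6. The intervals of Hp (-0.75 to 0.58), Cp (-0.83 to 0.65), Itih4 (-0.50 to 0.56) and Serpina3n (-0.74 to 0.33) span 0, and those of Orm1 and Lrg1 do so as well. Without replicate 6 edgeR called 7 of the 9 genes, all lower in the knockout, and without replicate 5 it called 4, of which Serpina3g was lower and Lrg1, Orm1 and Cp were higher. Over all genes these fits called 2479 and 3048, against 387. Orm1 and Cp thus turned in direction, with log2 values of -0.87 and -0.64 without replicate 6 and 0.76 and 0.30 without replicate 5.

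The pair of knockout D.f. libraries differed in most of the 9 genes. Replicate 6 was higher than replicate 5 by 3.74-fold in Lcn2, 3.10-fold in Orm1, 2.03-fold in Lrg1, 2.01-fold in Orm2, 1.92-fold in Cp and 1.76-fold in Hp, and replicate 5 was 1.92-fold higher in Serpina3g. Neutrophil markers (17 genes) summed to 350.3 CPM in replicate 6 and 115 CPM in replicate 5, while wild-type D.f. had 163 and 99.9 CPM and the PBS libraries 52.8 (wild type) and 152 CPM (knockout). Interferon-stimulated genes went the other way, with 512 CPM in replicate 6 and 1209.9 CPM in replicate 5, against 9990.3 and 7153 CPM in wild-type D.f. Hepatocyte markers summed to 33.0 CPM in replicate 5 and 7.50 CPM in replicate 6, while Orm1, Hp and Lcn2 were lower in replicate 5. The part of these differences in the members' values was not tested.

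**Figure D4:**
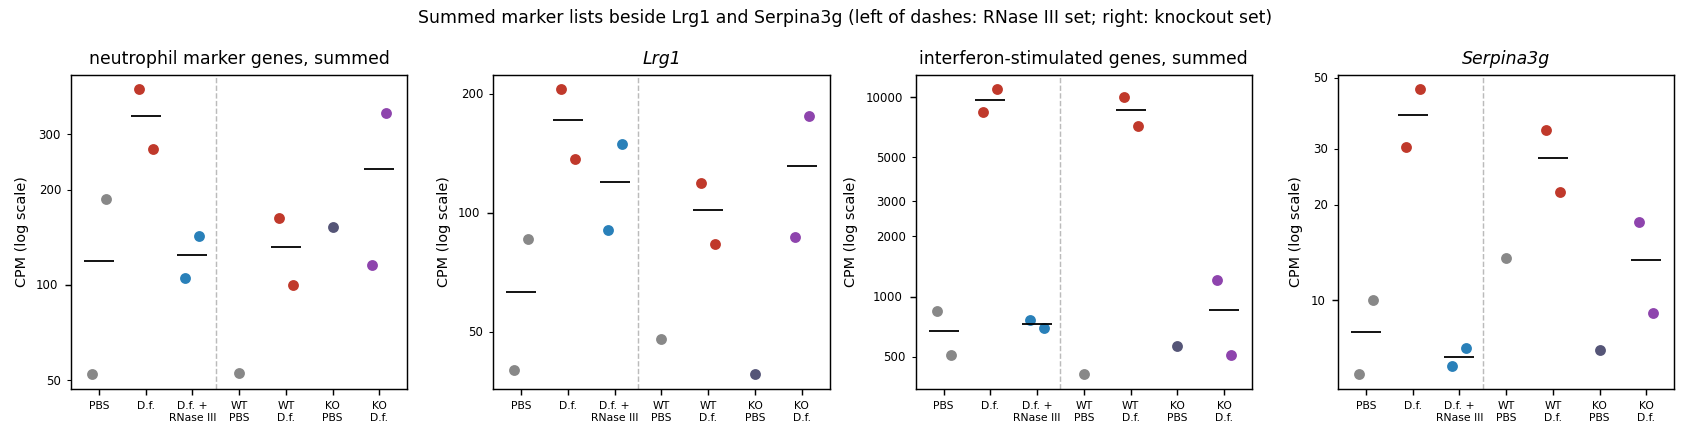
Summed level of the neutrophil markers and of the interferon-stimulated genes beside Lrg1 and Serpina3g, in CPM on a log axis; points are libraries and bars the mean of 2. In the knockout D.f. pair the library with 350.3 CPM of neutrophil markers has 176 CPM of Lrg1, and the one with 115 CPM has 86.7 CPM. The PBS libraries of that set do not run together, with 152 CPM of the markers and 39.0 CPM of Lrg1 in the knockout and 52.8 and 48.0 CPM in wild type.

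The difference between the D.f. effects of the 2 genotypes was also tested. No member was called by edgeR, with 1 of 9 at an unadjusted p under 0.05, where 0.00654% of 15294 genes were called. Without knockout D.f. replicate 5, Lrg1, Itih4 and Serpina3n were called, and without replicate 6 Lcn2, Cp and Serpina3n, with 1666 and 1238 calls over all genes, against 1. DESeq2 called none of the 9. Serpina3n had a log2 value of -1.12 ± 0.37 (95% interval -2.06 to -0.19, adjusted p = 0.419), and it was called without knockout D.f. replicate 5 (-0.89) and without replicate 6 (-1.38). The PBS libraries it rests on, 178 CPM in wild type and 336 CPM in the knockout, have no replicates. Lcn2 had a log2 value of -1.04 ± 1.04 (95% interval -3.65 to 1.57) and Serpina3g -0.12 ± 0.65 (-1.76 to 1.51).

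Over both sets, the 7 wild-type libraries with PBS or D.f. alone were fitted with the set as a term, and 7 of the 9 genes rose, where 9.18% of 14953 shared genes were called higher. These libraries are those of the comparisons above, so the fit is no independent check of them. The log2 values were 3.59 ± 0.39 for Lcn2, 1.86 ± 0.14 for Serpina3n, 1.75 ± 0.33 for Serpina3g and 1.08 ± 0.11 for Cp (adjusted p of 0.00082, 0.00018, 0.0118 and 0.00055 by edgeR). Orm2 (2.84 ± 0.75), Hp (0.82 ± 0.21) and Lrg1 (1.29 ± 0.29) passed with adjusted p of 0.0412, 0.0370 and 0.0220. For Orm2 the log2 value was 6.56 without the wild-type PBS library of the knockout set and 2.24 without PBS replicate 2 of the RNase III set. Orm1 (2.20 ± 0.63, adjusted p = 0.0536) and Itih4 (0.70 ± 0.26, adjusted p = 0.114) did not. Leaving out 1 library at a time, the call of Hp held only without D.f. replicate 4 or PBS replicate 2 of the RNase III set, and that of Orm2 only without the PBS replicate 1 of either set. The call of Lrg1 held without either PBS library of the RNase III set or D.f. replicate 4 of the knockout set. The highest adjusted p of these genes was 0.144, 0.103 and 0.0845. Orm1 was called without the wild-type PBS library of the knockout set (log2 3.98) and without its D.f. replicate 4. Itih4 was called without PBS replicate 2 of the RNase III set, with a log2 value of 1.07.

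The sets differed in the starting level of several genes, and their tables list different numbers of genes. Orm1 was at 0.442 and 0.588 CPM in the PBS libraries of the RNase III set and at 7.06 and 6.37 CPM in those of the knockout set. Orm2 was at 1 and 0 reads in the former and 37 and 30 reads in the latter. Hp went the other way, from 635 and 805 CPM to 128 and 125 CPM. Lung epithelium markers differed in the same direction as Hp, with sums of 30904 and 42472 CPM in the PBS libraries of the RNase III set and 12406 and 13643 CPM in those of the knockout set. The club cell gene Scgb1a1 was at 19410.1 and 24292 CPM in the former and 1034 and 1237 CPM in the latter. Their part in the level of Hp was not tested. The D.f. effect in wild type was 3.33 ± 0.49 larger on the log2 scale in the RNase III set for Orm1, 5.19 ± 0.88 larger for Orm2 and 0.91 ± 0.28 smaller for Hp. This test was added after the data were seen. None of the 9 was called (adjusted p of 0.561, 0.561 and 0.790 by edgeR), nor any of 14953 genes (0%), with 833 genes and 3 members at an unadjusted p under 0.05. DESeq2 called 54 genes, Orm1 among them (adjusted p = 0.00029). Differences between the sets in mice, sequencing and table cannot be told apart.

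The other genes of the response were described from lists. Of 16 other acute phase genes tested in the RNase III set, 11 rose with D.f. and none fell, and their median was 2.54 on the log2 scale. Among them were Saa3, a serum amyloid A gene of macrophages and epithelium (6.17 ± 0.33), Saa1 (4.90 ± 0.44), the soluble pattern receptor Ptx3 (3.78 ± 0.33) and the metalloreductase Steap4 (2.08 ± 0.22). With RNase III against D.f. 4 of the 16 fell: Ptx3, Saa3, Hpx and Cfb. With RNase III against PBS 14 of the 16 had a positive log2 value, and 12 were higher without overlap, as were 16.4% of all genes. Saa3 rose (log2 4.78 ± 0.31, adjusted p = 0.013 by edgeR), the single gene of 17165 called in that comparison. In the knockout set Saa1, Cfb and Slpi rose in wild type among 18 tested. Between genotypes with D.f., Saa1 was lower in the knockout (log2 -1.81 ± 0.18, adjusted p = 0.017 by edgeR), and the fibrinogen genes Fga and Fgg were higher. The latter pair are liver genes, and knockout D.f. replicate 5 holds the 208 reads of Alb. The part of that library in the values of Fga and Fgg was not tested. The 3 negative acute phase genes tested, Rbp4, Ahsg and Trf, gave no call with D.f. in the RNase III set by edgeR, and none had an unadjusted p under 0.05.

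Of 17 cytokines and receptors that drive the acute phase, 6 rose with D.f. in the RNase III set and the same 6 fell with RNase III. Il1b had log2 values of 3.48 ± 0.39 and -2.24 ± 0.37, Tnf 2.45 ± 0.30 and -2.86 ± 0.31, the oncostatin M receptor Osmr 1.08 ± 0.15 and -0.85 ± 0.15, and Il17ra 0.83 ± 0.12 and -0.93 ± 0.12. These comparisons share the D.f. libraries. Of 12 transcription factors and feedback genes, 10 rose with D.f. and 7 fell with RNase III. Cebpd rose by 1.41 ± 0.15 and fell by 1.04, Socs3, the inhibitor of Stat3 signalling, rose by 1.82 ± 0.26 and fell by 1.61, and Relb rose by 1.20 ± 0.17 and fell by 1.06, all on the log2 scale. Cebpb rose by 1.29 ± 0.19, with a value of -0.40 ± 0.19 for RNase III that did not pass (adjusted p = 0.28 by edgeR). In the knockout set no gene of either list was called in wild type or knockout by edgeR, with 5 and 3 of 17 cytokine genes and 6 and 2 of 13 factors at an unadjusted p under 0.05. Calls of these lists by DESeq2 were not computed. Between genotypes with D.f., Il6ra was higher in the knockout (log2 0.71 ± 0.10, adjusted p = 0.034).

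Among 21 receptors, partners and target enzymes of the members, 5 rose with D.f. in the RNase III set and 1 fell. Gzmb, the granzyme that Serpina3n inhibits, rose by 2.91 ± 0.24 and fell by 3.24 with RNase III on the log2 scale. The cathepsin genes Ctss (1.16 ± 0.14) and Ctsb (0.82 ± 0.15) rose, and both fell with RNase III (log2 -1.23 and -0.74). Slc11a1, a metal transporter of phagosomes, rose by 1.74 ± 0.25 and fell by 1.14. Cd163, the macrophage receptor for haptoglobin bound to haemoglobin, fell by 2.13 with D.f. (adjusted p = 0.027 by edgeR). In the knockout set Cd163 was higher in knockout than in wild-type D.f. lungs (log2 2.71 ± 0.33, adjusted p = 0.026).

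The members varied together to different degrees. Levels were taken as log2 CPM centred within each set, over the 12 libraries. Pearson's r was highest for Orm1 and Orm2 (0.96), whose transcripts share some windows, and for Cp and Serpina3n (0.94). It was lowest for Itih4 and Serpina3g (0.25), and Serpina3g had r of 0.25 to 0.60 with the 8 others. Among 13448 genes the patterns most like Lcn2 were those of Ccl9 (r = 0.98), Itgax (0.97) and Slpi (0.97). Those most like Serpina3g were Ccdc86 (0.98), Kat2a (0.97) and Aim1 (0.97), and those most like Cp were Bzw1 (0.98), Sod2 (0.97) and Tnfrsf9 (0.97). For Orm2 they were Rab10 (0.97), Orm1 (0.96) and Rab1 (0.96), for Orm1 Orm2 (0.96), Rsl1d1 (0.96) and Rab10 (0.95), and for Lrg1 Coq10b (0.97), Cd14 (0.96) and Vapa (0.94). Hp was most like Pigr, Slc5a1 and Mmp19 (0.94 each), Serpina3n like E130309D02Rik, Gm11428 and Ankrd49 (0.96 each), and Itih4 like Wdr92 (0.91), Sftpd (0.89) and Lrrfip2 (0.88). The libraries fall into treatment groups that set much of each r, so these values are a description with no test.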

How the data were processed

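Per the labels' protocols, whole-lung RNA was extracted with TRIzol, prepared with the TruSeq total RNA kit and read as single ends of 100 bases. Per the submitters' processing notes, bcl2fastq, TopHat2 2.0.8b, HTSeq and mouse build mm9 were used. For HTSeq, the version, the annotation and whether strand was used are not given in the sources. The authors deposited raw read counts per gene, 1 table per library, with no normalization. HTSeq's rows of unassigned reads entered neither library sizes nor tests: genes took 23.1% to 28.2% of a table's reads, while reads with no feature were 27.0% to 40.0%, those not unique 36.8% to 44.6% and ambiguous ones 0.0552% to 0.172%.

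Groups came from the sample titles. Counts were fitted in R 4.3.3 with edgeR 4.0.16 (TMM, filterByExpr by group, estimateDisp, glmQLFit, glmQLFTest), with Benjamini-Hochberg adjustment over all genes tested and a threshold of 0.05. The sets were fitted apart, with 6 libraries each (residual degrees of freedom 3 for the RNase III set, 2 for the other), and the 7 wild-type libraries of both sets were fitted with a set term, with 4. CPM levels use library sizes scaled by TMM. Each fold change is given with an SE, which edgeR does not print. It was taken as the absolute log2 value divided by the square root of the F statistic of the test. Intervals of log2 values extend that SE times a t quantile to either side. Between replicates, the chi-square over genes per degree of freedom, 7.33 to 46.6, was far above sampling noise in each pair. Alternatives were DESeq2 1.42.0, no filter on low counts, other scalings, 1 fit over all 12 libraries and leaving out each library. Likeness used log2 of CPM plus 0.5, centred within each set, over genes whose mean log2 CPM was 1 or more. The code was tested on simulated counts. The genes, the lists and the tests were chosen with earlier results of these data known.

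Named genes are the 9 members, up to 4 genes per list with the smallest p for D.f. in the RNase III set, and the 3 genes most correlated with each member. Hpx, Cfb, Slpi, Fga, Fgg and Cd163 in the account of the lists, Il6ra, and Alb, Stfa3 and Ly6g among the markers, were named after their values were seen.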

Additional observations from a re-analysis of the deposited data

How the results depend on the processing

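No paired analysis was possible because the groups compared within a set share no replicate numbers. The 6 calls for D.f. in the RNase III set held under every alternative run, leaving out each library included. With 2 libraries a group, and 1 of PBS per genotype in the knockout set, small changes cannot be resolved, and 3 reads limit Orm2 in PBS. Leaving out a knockout D.f. library leaves 1 residual degree of freedom, and the many calls then made rest on the wild-type pair.

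Counts of calls that moved over 1.5 times were as follows; the cause was not tested. For D.f. with RNase III against PBS, DESeq2 called 48 genes and 5 members, and no filter gave 10 genes and 4 members, against 1 and 0. For the step from D.f. to D.f. with RNase III, DESeq2 called 1905 genes against 1246. For wild-type D.f. against PBS in the knockout set, 1 fit over all libraries gave 391 genes and 2 members, DESeq2 648 and 4, and no filter 391 and 1, against 232 and 0. DESeq2 called 36 genes and 2 members for the knockout against its PBS, and 736 genes between genotypes with D.f., against 387. For the difference between genotypes in the D.f. effect, 1 fit over all libraries gave 7 genes, DESeq2 213 and no filter 16, against 1. With no set term the pooled wild-type fit called 752 genes and 4 members, against 2252 and 7. For the added difference between sets, DESeq2 called 54 genes and 1 member, against 0.

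Leaving out 1 library at a time, the counts of genes and of members ranged as follows. D.f. in the RNase III set, set against PBS, gave 584 to 3071 genes and 6 to 9 members, D.f. with RNase III against PBS 0 to 188 and 0 to 4, and the step from D.f. to D.f. with RNase III 146 to 2874 and 0 to 5. Wild-type D.f. against PBS in the knockout set gave 0 to 3150 and 0 to 9, the knockout against its PBS 0 to 2092 and 0 to 8, and knockout against wild type 7 to 3048 and 0 to 7. The difference between genotypes gave 0 to 1666 and 0 to 3, the pooled fit 1112 to 2425 and 4 to 7, and the difference between sets 0 to 126 and 0.

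Log2 values that changed sign without 1 library ranged from -0.59 to 0.18 for Serpina3g with RNase III against PBS and from -0.046 to 1.58 for Orm1 in the knockout against PBS. Between genotypes with D.f. they ranged from -1.83 to 0.071 for Lcn2, -0.87 to 0.76 for Orm1, -0.55 to 0.26 for Hp, -0.64 to 0.30 for Cp, -0.23 to 0.79 for Lrg1, -0.28 to 0.29 for Itih4 and -0.49 to 0.025 for Serpina3n. For the difference between genotypes they ranged from -0.69 to 0.91 for Orm1, -0.90 to 0.079 for Orm2, -0.50 to 0.29 for Hp, -0.68 to 0.24 for Cp and -0.67 to 0.30 for Serpina3g. For the difference between sets they ranged from -0.10 to 1.02 for Lrg1, -0.86 to 0.30 for Itih4 and -0.078 to 0.31 for Serpina3n.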
